A study of Mus musculus with 22 samples.

Results

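The genes followed here sense protein folding stress in the endoplasmic reticulum (ER) or act downstream of it. The list named 10 genes by symbol: the stress sensors Atf6 and Ern1, the transcription factor Xbp1, the ER chaperones and folding enzymes Hspa5, Hsp90b1, Calr, Pdia4, Dnajb9 and Sdf2l1, and the degradation factor Herpud1. Of these, 9 were among the 10516 genes with values, and Dnajb9 was not analysed here. The cells were NIH3T3, an immortalised mouse fibroblast line, transduced with lentiviruses that express a short hairpin RNA (shRNA). There were 11 lysates: 3 with Denr shRNA1 and 3 with Denr shRNA2, which target the re-initiation factor gene Denr, and 3 with scramble shRNA and 2 with Gfp shRNA as controls. All groups carried a lentiviral shRNA and were treated with cycloheximide at 100 µg/ml for 2 min before lysis, so no untransduced cells were compared, and no agent that stresses the ER was used in any group. Each lysate gave a ribosome footprint library (RPF-seq) and a total RNA library (RNA-seq). The values are RPKM, reads scaled to the length of the region and to the size of the library, for the coding sequence (CDS) and for the 5′ UTR of each gene. The labels number the replicates within each shRNA, and the p-values measure the spread between these lysates.

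The unfolded protein response is carried by 3 membrane proteins of the ER: ATF6, which is cut and moves to the nucleus, IRE1 (encoded by Ern1), which splices the Xbp1 mRNA in the cytoplasm, and PERK (encoded by Eif2ak3), which phosphorylates the initiation factor eIF2α and thereby raises translation of Atf4. ATF6 and spliced XBP1 bind ER stress response elements (ERSE) in the promoters of chaperone genes. Fibroblasts secrete large amounts of collagen and other matrix proteins, and express ER chaperones at a high level without added stress. DENR, with its partner MCTS1, helps ribosomes to resume scanning and initiate again after they have translated a short upstream open reading frame (uORF) in a 5′ UTR.

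The promoter elements are printed because they are a feature that part of the list shares and that was not used to choose it. RefSeq promoter windows on GRCm38.p6, reaching from 250 bases upstream to 50 bases downstream of the start site, were found for all members except Atf6. The complete ERSE, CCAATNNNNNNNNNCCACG, was searched on both strands. It was present in 39 of 32851 windows (0.119%), which included those of Hspa5, Calr and Hsp90b1. A second form, ERSE-II (ATTGGNCCACG), was present in 12 windows (0.0365%), which included that of Herpud1. These motifs share CCACG, but no window of a member held more than one of the forms. The UPR element TGACGTGG was present in 222 windows (0.676%), none of them of a member. Among the other genes of the pathway lists described below, 103 had a window, and those of Canx, Creld2, Derl3, Dnajc3, Pdia6 and Syvn1 held an ERSE. In the sequences below the fixed letters of each motif are in capitals.
Hspa5, chr2:34772025-34772043, plus strand: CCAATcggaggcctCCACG
Calr, chr8:84847075-84847093, plus strand: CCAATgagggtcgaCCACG
Hsp90b1, chr10:86705638-86705656, minus strand: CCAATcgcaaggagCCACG
Hsp90b1, chr10:86705533-86705551, plus strand: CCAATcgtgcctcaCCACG
Herpud1, chr8:94386377-94386387, plus strand: ATTGGgCCACG
The end of the element farther from the RefSeq start site lay 65 bases upstream of that site in Hspa5, 162 in Calr, 212 and 107 in Hsp90b1 and 52 in Herpud1. A match is a description of the letters and not evidence of binding.

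The segment that IRE1 removes from Xbp1 mRNA was located because it marks what the deposited values cannot show. It was found once in the Xbp1-201 transcript, by the conserved bases of the paired splice loops, in exon 4 and inside the CDS at chr11:5524279-5524304 (GRCm38, plus strand).
Xbp1 segment: cagcactcagactatgtgcacctctg
It is 26 bases long, and its removal changes the annotated reading frame from 267 to 371 codons. There was 1 CDS value per gene, so spliced and unspliced Xbp1 mRNA could not be told apart. The Xbp1 values below are for these forms together, over a counted CDS of 849 bases. That is shorter than the spliced frame of 371 codons, so footprints on part of that frame were left out.

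Denr RNA in the 6 knockdown lysates was 8.57 to 24.4% of the control mean, against 91.2 to 105% in the controls. Libraries held 10927303 to 21649878 recovered reads on CDS and 5′ UTR together in RPF-seq and 8514080 to 20109700 in RNA-seq. The RNA-seq library of Denr shRNA1 replicate 1 stood apart from its fellow replicates (R² of log2 values 0.970 and 0.956, against 0.990 between replicates 2 and 3), and that of scramble shRNA replicate 3 had low 5′ UTR values for its CDS values (median deviation -0.19 on the log2 scale over 5175 genes). All 8 fibroblast markers on the list were present, from Pdgfrb at a median of 38.4 RPKM to Vim at 4160.0 RPKM. Of the markers of epithelium, endothelium and muscle the files held Cdh1, Cdh5 and Des, with medians of 3.64, 0.759 and 1.12 RPKM, and of the 3 leukocyte markers none.

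Calr, Hspa5 and Hsp90b1 were among the abundant messages of these cells, with control RNA at the percentiles 98.5, 96.9 and 96.6 of all genes. Mean RNA over the 11 lysates was 743 ± 87.7 RPKM (SD, n = 11) for Calr, a lectin-like, calcium-binding chaperone of glycoproteins. It was 430.1 ± 39.2 RPKM for Hspa5 (BiP), the ER Hsp70 that also binds the luminal parts of the sensors, and 385 ± 71.0 RPKM for Hsp90b1 (GRP94), the ER Hsp90. Then followed Sdf2l1, which acts with ER Hsp40 proteins, with 132 ± 26.6 RPKM, and Xbp1 with 103 ± 14.1 RPKM. Pdia4, a protein disulfide isomerase, had 79.2 ± 7.65 RPKM and Herpud1, which assists the ubiquitin ligase of ER-associated degradation, had 76.6 ± 11.7 RPKM. The sensors were lowest, with 27.1 ± 2.51 RPKM for Atf6 and 12.9 ± 0.840 RPKM for Ern1. Between neighbours in this order, the lysates of Hspa5 overlapped those of Hsp90b1, and likewise Sdf2l1 with Xbp1, Xbp1 with Pdia4 and Pdia4 with Herpud1. The other steps in the order separated all lysates. In GENCODE vM21 on GRCm38 the genes lie at chr8:84841850-84846934 (Calr), chr2:34771970-34777547 (Hspa5), chr10:86690209-86705509 (Hsp90b1), chr16:17130138-17132383 (Sdf2l1), chr11:5520659-5525893 (Xbp1), chr6:47796141-47813430 (Pdia4), chr8:94386438-94395377 (Herpud1), chr1:170704674-170867771 (Atf6) and chr11:106394650-106487852 (Ern1).

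**Figure D1:**
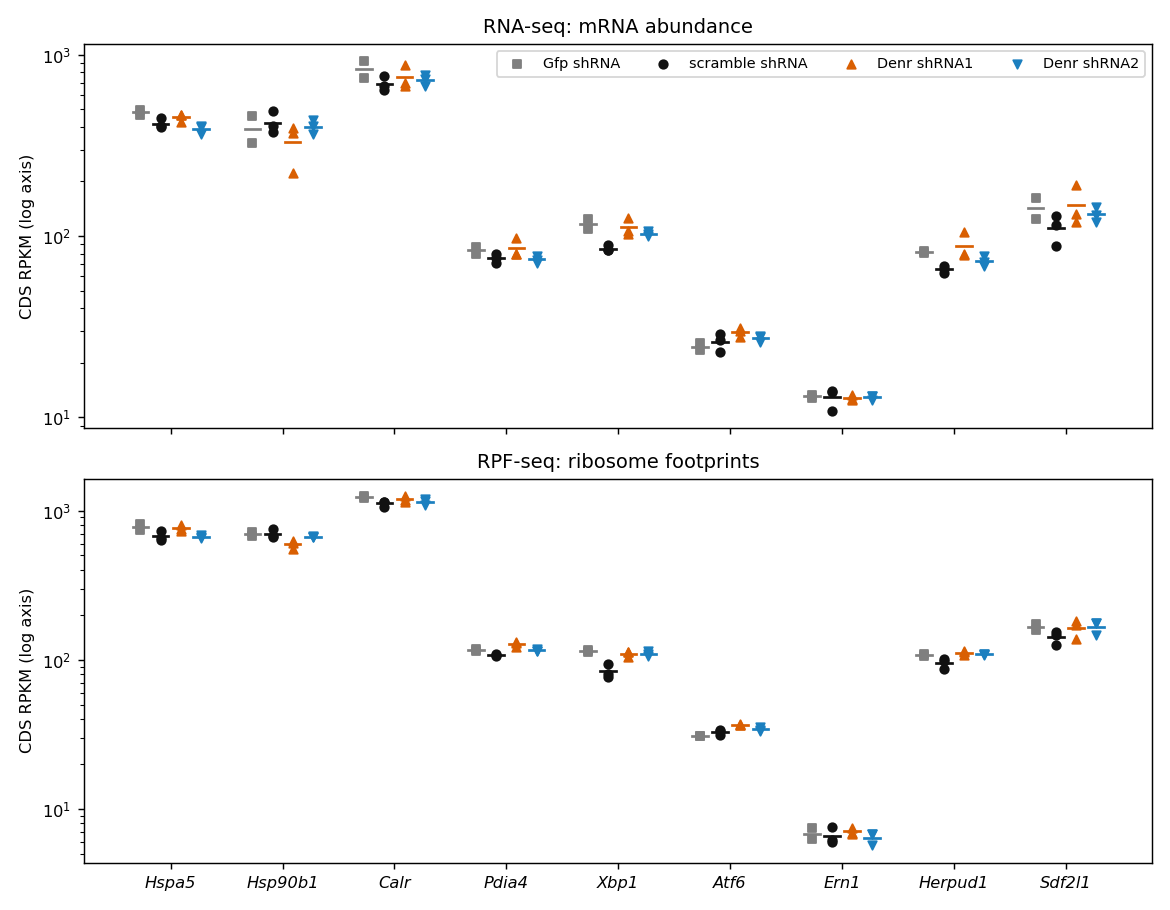
CDS RPKM on a log axis for the 9 members in RNA-seq (upper) and RPF-seq (lower), with 1 point per lysate and a short bar at the mean of each shRNA. Calr lies highest and Ern1 lowest in each assay, and the lysates of the 4 shRNAs lie close together for each gene, with Xbp1 lower in the 3 scramble lysates than in the other groups.

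The chaperones were also more densely covered by ribosomes per mRNA than the typical gene, and Ern1 less. Translation efficiency (TE) is here log2 of CDS footprints over CDS RNA in the same lysate. In the 5 control lysates it was 0.78 ± 0.24 for Hsp90b1, 0.69 ± 0.080 for Hspa5 and 0.65 ± 0.15 for Calr, against a median of -0.076 over all genes. Hsp90b1 and Hspa5 are thus at the percentiles 88.4 and 85.5 of all genes. Pdia4 (0.50 ± 0.060), Herpud1 (0.48 ± 0.12), Atf6 (0.33 ± 0.13) and Sdf2l1 (0.32 ± 0.22) followed. Xbp1 was in the middle of all genes (-0.028 ± 0.16, percentile 52.3), and Ern1 was at -0.94 ± 0.16 (percentile 19.9).

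Whether loss of DENR changed the RNA of these genes was asked first. None of the 9 members passed a false discovery rate of 0.1 in RNA abundance (limma, 6 knockdown against 5 control lysates), and none did at an unadjusted p under 0.05. Over all genes 3.55% were called, and of 10516 genes 1180 were higher and 517 lower at an unadjusted p under 0.05. The log2 fold changes ran from -0.18 for Hsp90b1 to 0.19 for Sdf2l1, with a median of 0.019 against 0.027 over all genes, and adjusted p-values from 0.327 to 0.977. No member separated the knockdown from the control lysates, as 3.67% of all genes did. RPKM are shares of a library from bulk lysates, in which fewer cells that express a gene and less RNA per cell cannot be told apart.

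The 95% intervals show how much change these lysates leave room for. They were narrow for the sensors and for the chaperone Hspa5, at -0.18 to 0.16 for Ern1, -0.0059 to 0.33 for Atf6 and -0.25 to 0.11 for Hspa5. They were wide for Hsp90b1 (-0.52 to 0.15) and Sdf2l1 (-0.13 to 0.50). Hsp90b1 RNA was 222, 369 and 395 RPKM with Denr shRNA1, 365, 435 and 403 with Denr shRNA2, 324 and 458 with Gfp shRNA and 373, 406 and 489 with scramble shRNA. The low value of 222 came from the library of Denr shRNA1 replicate 1. With that lysate and scramble shRNA replicate 3 left out, an alternative chosen after seeing the data, the fold change of Hsp90b1 was 0.020 and not -0.18.

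**Figure D2:**
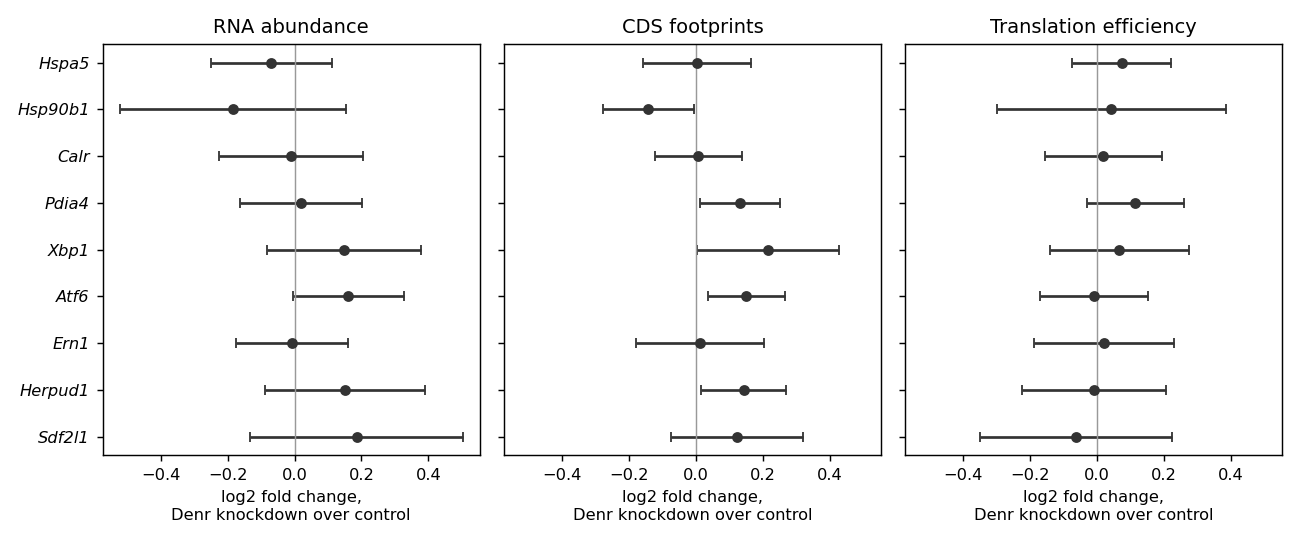
Log2 fold change of Denr knockdown over control with its 95% interval (limma, 6 against 5 lysates) for each member, in RNA abundance, CDS footprints and TE. Intervals include 0 for all 9 members in RNA and TE, and the footprint intervals of Pdia4, Xbp1, Atf6, Herpud1 and Hsp90b1 do not, although none passed the adjusted threshold.

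Footprints on the CDS gave the same count. With all lysates, 0 of 9 members were called, where 10.0% of all genes were, and no member separated the arms, as 4.45% of all genes did. At an unadjusted p under 0.05 there were 5 members, with Atf6, Pdia4, Herpud1 and Xbp1 higher and Hsp90b1 lower in knockdown lysates. At that p, 1332 of all 10516 genes were higher and 1145 lower. The median over the members was 0.12, against 0.0072 over all genes, and 8 of 9 values were above 0. Atf6 footprints, the readout of synthesis of the sensor itself, were 36.6, 36.9 and 36.5 RPKM with Denr shRNA1 and 34.0, 33.3 and 35.2 with Denr shRNA2. The controls had 30.6 and 30.7 RPKM with Gfp shRNA and 33.2, 31.4 and 33.6 with scramble shRNA. The knockdown lysates were higher except that Denr shRNA2 replicate 2 lay below scramble shRNA replicate 3. The log2 fold change was 0.15 ± 0.053 (SE), with an adjusted p of 0.115 in limma. Over 23 alternative fits the adjusted p was 0.0643 to 0.412, and Atf6 was called in 2 of them. These were a test on the recovered reads (0.0643) and a fit with the replicate number as a block (0.0984).

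Herpud1 footprints were 114, 113 and 108 RPKM with Denr shRNA1 and 110.0, 108 and 110.0 with Denr shRNA2, against 105 and 109.7 with Gfp shRNA and 86.9, 98.3 and 101 with scramble shRNA. The Gfp lysates were thus near the knockdown lysates and the scramble lysates below them. The fold change was 0.14 ± 0.059 (SE; adjusted p = 0.163). Single values were also compared by a two-sided exact permutation test over all ways to draw 6 of 11 lysates. Of 37 such tests of members, 8 gave p under 0.05 and none passed 0.1 after Benjamini-Hochberg adjustment. The exact test was not run over all genes, so the 8 cannot be set against their share. The lowest exact p was 0.00649 for Herpud1 footprints (adjusted 0.107), with 0.00216 the smallest these lysates can give.

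No member was called in TE (0 of 9, with 0.475% called over all genes), and none reached an unadjusted p of 0.05. Of all 10516 genes, 155 were higher and 545 lower at that p. The log2 differences lay between -0.062 for Sdf2l1 and 0.11 for Pdia4, with a median of 0.020 against -0.012 over all genes. No member separated the arms in TE, where 1.42% of all genes did. The interval was -0.075 to 0.22 for Hspa5 and -0.17 to 0.15 for Atf6, and -0.30 to 0.38 for Hsp90b1.

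The Denr hairpins were also set against the controls one at a time. Here the 4 shRNAs were fitted as separate groups and each Denr shRNA was set against the mean of the 5 control lysates, which both comparisons share. For footprints this fit was added after seeing the data. The p-values of such fits, here and below, measure the spread between lysates of the same shRNA. They leave out the spread between hairpins, so a call can hold a difference of 1 hairpin that is not due to Denr. With Denr shRNA1, 5 of 9 members were called in CDS footprints, where 17.7% of all genes were. Pdia4 rose by 0.20 ± 0.049 on the log2 scale (SE; adjusted p = 0.0188), Atf6 by 0.20 ± 0.052 (adjusted p = 0.0274), Xbp1 by 0.21 ± 0.069 (adjusted p = 0.0643) and Herpud1 by 0.16 ± 0.058 (adjusted p = 0.09995), while Hsp90b1 fell by 0.22 ± 0.064 (adjusted p = 0.0395). With Denr shRNA2, 1 of 9 members was called, where 19.9% of all genes were: Xbp1, which was higher by 0.22 ± 0.069 (adjusted p = 0.0592).

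The calls of Pdia4 and Atf6 with Denr shRNA1 held in each of the 11 fits that left out 1 lysate. That of Hsp90b1 was lost without Denr shRNA1 replicate 2 (adjusted p = 0.202). That of Xbp1 was lost without Denr shRNA1 replicate 2 (0.211) or 3 (0.169), or without scramble shRNA replicate 1 (0.212) or 3 (0.206), all adjusted p. That of Herpud1, which had just passed, held only without Gfp shRNA replicate 1, Gfp shRNA replicate 2 or scramble shRNA replicate 3, and its adjusted p was 0.126 to 0.261 without any of the other 8 lysates. The Xbp1 call with Denr shRNA2 was lost without Denr shRNA2 replicate 1 (0.142) or 2 (0.217), or without scramble shRNA replicate 1 (0.192) or 3 (0.195).

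Pdia4 footprints show the pattern of the hairpins. They were 131, 123 and 129.8 RPKM with Denr shRNA1, 118, 115 and 114 with Denr shRNA2, 119 and 114 with Gfp shRNA and 107, 106 and 109 with scramble shRNA. Every Denr shRNA1 lysate was above every other lysate, while Denr shRNA2 and Gfp lay together. Hsp90b1 footprints were 611, 552 and 625 RPKM with Denr shRNA1, 664, 661 and 678 with Denr shRNA2, 719.6 and 672 with Gfp shRNA and 667, 675 and 747 with scramble shRNA, so that the Denr shRNA1 lysates were below all others. The difference between the hairpins was tested itself: none of the 9 members was called between Denr shRNA2 and Denr shRNA1 in footprints (9.69% of all genes were) or in RNA (2.06%). The lowest adjusted p was 0.167, for Pdia4 footprints, at -0.14 ± 0.055 (SE).

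RNA of the members was called with neither hairpin: 0 of 9 with Denr shRNA1, where 6.13% of all genes were called, and 0 of 9 with Denr shRNA2, where 6.51% were. At an unadjusted p under 0.05, Xbp1, Atf6 and Herpud1 were higher with Denr shRNA1 and Hspa5 was lower with Denr shRNA2. Of all 10516 genes, 1330 were higher and 585 lower at that p with Denr shRNA1, and 1167 and 747 with Denr shRNA2. Hspa5 RNA was 428, 463 and 463 RPKM with Denr shRNA1 and 403, 402 and 366 with Denr shRNA2. The control lysates had 466 and 495 with Gfp shRNA and 398, 403 and 446 with scramble shRNA, so that each hairpin had 1 control group close to it.

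**Figure D3:**
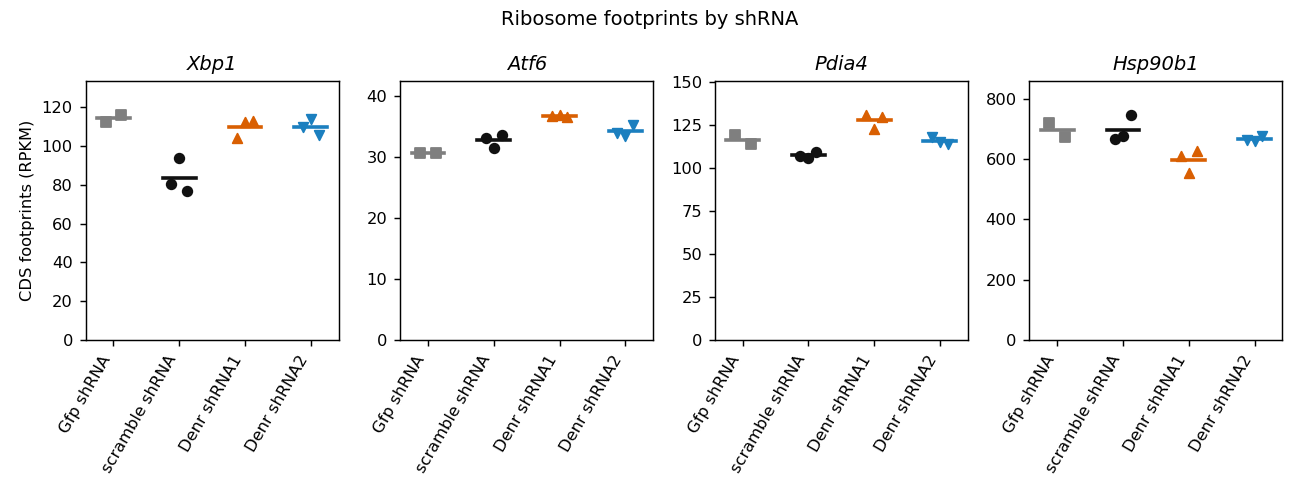
CDS footprints (RPKM, axes from 0) of Xbp1, Atf6, Pdia4 and Hsp90b1 by shRNA, with 1 point per lysate and a bar at the group mean. Xbp1 is low in the 3 scramble lysates, at 76.6 to 93.9 RPKM, and between 104 and 116 RPKM in all 8 others, while Pdia4 is highest and Hsp90b1 lowest with Denr shRNA1.

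Xbp1 differed between the control hairpins. Its footprints were 80.6, 93.9 and 76.6 RPKM with scramble shRNA, against 113 and 116 with Gfp shRNA, 104, 113 and 113 with Denr shRNA1 and 109.9, 114 and 106 with Denr shRNA2. The scramble lysates did not overlap any other group. Of the Gfp lysates, that at 113 RPKM lay among those of the Denr shRNAs and that at 116 RPKM just above them. Gfp against scramble was 0.45 ± 0.086 (SE; adjusted p = 0.0148), a 1.37-fold difference, and Xbp1 was the only 1 of 9 members called there, with 8.48% of all genes called. Without Gfp shRNA replicate 2 this call was lost (adjusted p = 0.130).

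Xbp1 RNA had the same order, with 83.2, 83.3 and 89.1 RPKM in the scramble lysates and 99.7 to 125 RPKM in the 8 others. The RNA difference between Gfp and scramble was 0.45 ± 0.11 (SE; adjusted p = 0.137), so that 0 of 9 members were called, against 0.704% of all genes. Without Denr shRNA1 replicate 1, whose RNA-seq library stood apart, the adjusted p was 0.0339. The pooled knockdown result for Xbp1 therefore depended on the control. Against scramble shRNA alone Xbp1 was higher by 0.33 in RNA (adjusted p = 0.0529) and 0.40 in footprints (adjusted p = 0.00486), and against Gfp shRNA alone it was -0.12 and -0.058. Pdia4 and Herpud1 footprints were also called against scramble shRNA alone (adjusted p = 0.0687 and 0.0343).

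In 5′ UTR footprints, members were called with both Denr hairpins pooled. A 5′ UTR was tested where it had at least 20 recovered footprints in 9 or more of 11 libraries, which 5175 genes and 5 of the 9 members met: Hspa5, Hsp90b1, Calr, Ern1 and Herpud1. Pdia4, Atf6 and Sdf2l1 were too thinly covered, with 5 to 41 footprints per library, and Xbp1 had 1 to 8 over a counted 5′ UTR of 549 bases. In the controls, 5′ UTR density as a share of CDS density was 7.96% for Calr, 21.8% for Herpud1, 27.2% for Hspa5 and 30.7% for Hsp90b1, against a median of 53.8% over the 5175 genes. For Ern1 it was 137%, at percentile 81.5, from 19 to 24 5′ UTR footprints per control library. The share of Hspa5 rests on a counted 5′ UTR of 352 bases, longer than the 270 bases of its annotated transcript Hspa5-201. The same footprints on a shorter 5′ UTR would give a higher share.

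With Denr knockdown 2 of 5 members rose in 5′ UTR footprints, where 23.1% of all genes were called. With the replicate number as a block in the fit, 4 members and 2289 of 5175 genes were called. Hspa5 rose by 0.58 ± 0.18 (SE; adjusted p = 0.0498) and Herpud1 by 0.58 ± 0.19 (adjusted p = 0.0625). All 5 values were above 0, and their median was 0.42 against 0.30 over all genes. Hspa5 5′ UTR footprints were 288, 353 and 302 RPKM with Denr shRNA1 and 245, 334 and 236 with Denr shRNA2. The controls had 198 and 256 with Gfp shRNA and 173, 228 and 136 with scramble shRNA. The highest control, a Gfp lysate, overlapped the lowest knockdown lysates, and no covered member separated the arms, where 5.97% of all genes did.

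Herpud1 5′ UTR footprints were 37.3, 40.7 and 30.5 RPKM with Denr shRNA1, 24.9, 40.1 and 25.2 with Denr shRNA2, 19.8 and 29.9 with Gfp shRNA and 24.2, 21.5 and 15.7 with scramble shRNA. Here the arms overlapped through replicates 1 and 3 of Denr shRNA2 and replicate 2 of Gfp shRNA. The Hspa5 call was lost without Denr shRNA1 replicate 2 (adjusted p = 0.119) or Denr shRNA2 replicate 2 (0.114). The Herpud1 call was lost without either of these (0.142 and 0.136), without Gfp shRNA replicate 1 (0.133) or without scramble shRNA replicate 3 (0.124). With 5′ UTR RNA subtracted, the changes were 0.54 for Hspa5 (adjusted p = 0.181) and 0.39 for Herpud1 (0.385), so that neither was called, with 4 of 5175 genes called in that fit.

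By hairpin, in fits of the 4 shRNAs as separate groups that were added after seeing the data, 3 of 5 members rose in 5′ UTR footprints with Denr shRNA1, where 18.5% of all genes were called. These were Hspa5 (0.69 ± 0.21, SE; adjusted p = 0.0600), Herpud1 (0.72 ± 0.23; 0.0698) and Calr (0.73 ± 0.25; 0.0827). With Denr shRNA2, 0 of 5 were called by limma, where 1.84% of all genes were, and 1 had an unadjusted p under 0.05 (Hspa5, 0.47 ± 0.21). At that p, 1018 of the 5175 genes were higher and 25 lower. Calr differed most between the hairpins, at -0.0054 with Denr shRNA2, but 0 of 5 members were called in the test of that difference (lowest adjusted p = 0.773, with 0.0193% of all genes called). Gfp against scramble shRNA was above 0 for all 5 members, with a median of 0.27, and 0 were called (lowest adjusted p = 0.747, with 0.00% of all genes called and no member at an unadjusted p under 0.05). The count of 3 with Denr shRNA1 was 0 without Denr shRNA1 replicate 2 or 3, when 1 of all 5175 genes was called, and 1 without Denr shRNA1 replicate 1 or Gfp shRNA replicate 1. The Calr call was also lost without Denr shRNA2 replicate 1 (0.105) or 3 (0.101).

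Relative 5′ UTR translation, log2 of 5′ UTR over CDS footprints, rose for 1 of 5 members, where 18.1% of all genes were called. Hspa5 went from -1.88 ± 0.39 (SD, n = 5) in controls to -1.30 ± 0.23 (SD, n = 6) with Denr knockdown, a difference of 0.58 ± 0.19 (SE; adjusted p = 0.0799). The other values were 0.56 for Hsp90b1, 0.43 for Herpud1, 0.39 for Ern1 and 0.36 for Calr, with adjusted p from 0.131 to 0.280. The median of the 5 was 0.43, against 0.33 over all genes, and none separated the arms (4.83% of all genes did). The Hspa5 call was lost in 6 of the 11 fits that left out a lysate: Denr shRNA1 replicate 2 (adjusted p = 0.167) or 3 (0.118), Denr shRNA2 replicate 2 (0.170), Gfp shRNA replicate 1 (0.160) and scramble shRNA replicate 1 (0.122) or 3 (0.134). Without Gfp shRNA replicate 2, on the other hand, 3 members were called, with Hsp90b1 (adjusted p = 0.0532) and Herpud1 (0.0884) besides Hspa5, and with the replicate block 4 were. The level of 5′ UTR footprints differed between libraries over all covered genes. The median deviation of the 5′ UTR to CDS ratio was -0.45 and 0.053 in the Gfp libraries, -0.17, 0.0081 and -0.30 in the scramble libraries and 0.033 to 0.29 in the knockdown libraries, and its part in the values of the members was not tested.

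**Figure D4:**
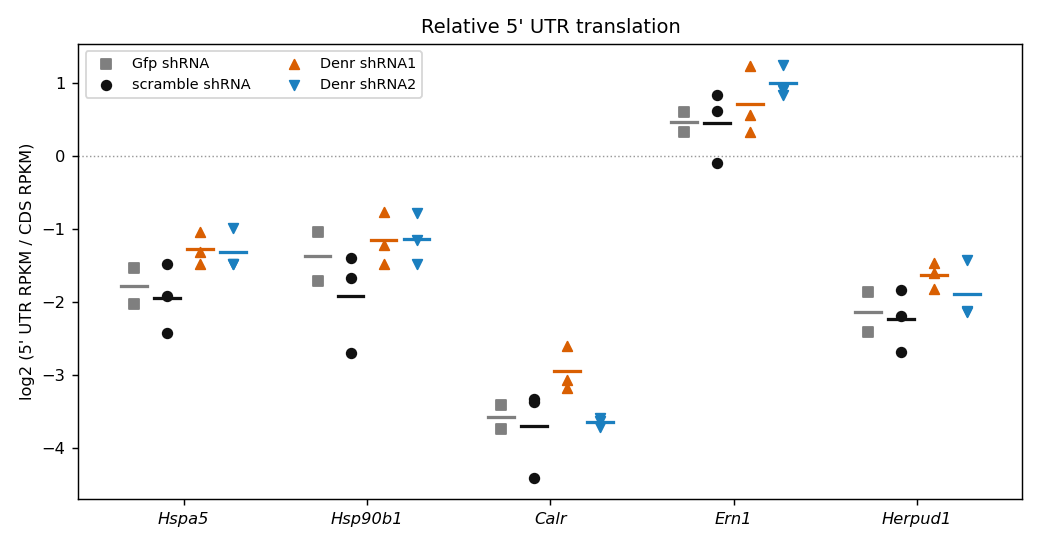
Relative 5′ UTR translation, log2 of 5′ UTR over CDS footprint RPKM, for the 5 members with enough 5′ UTR footprints, with 1 point per lysate and a bar at the mean of each shRNA. Ern1 lies above 0 in 10 of 11 lysates and the other members below it, and the arms overlap for every gene.

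Upstream reading frames that start with AUG were annotated on few of these genes. Those that start with CUG, GUG or UUG, which the authors also counted, were not searched. On the annotated transcript with the longest CDS (GENCODE vM21, GRCm38), 2 of 9 members held an AUG uORF of at least 9 bases, Hspa5 and Xbp1, against 49.8% of 10205 genes with a 5′ UTR. This difference was not tested. The Hspa5 uORF has 9 codons before its stop and starts at chr2:34771987-34771987, upstream of the RefSeq start site at chr2:34772090-34772090, so it lies only on the longer annotated form, whose first exon also holds the ERSE printed above. The Xbp1 uORF has 18 codons and ends 63 bases before the CDS, in a 5′ UTR with very few footprints. The files hold 1 value per 5′ UTR, so the footprints of Hspa5 could not be assigned to the uORF. Herpud1, Hsp90b1, Calr and Ern1, the other members with 5′ UTR footprints, held no AUG uORF in this annotation.

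Genes around the members were described with lists of the pathway that hold no member. The list of ER stress signalling and transcription factors had 16 genes, of which 2 rose in RNA and 2 in footprints, where 3.55% and 10.0% of all genes were called. Of 10 genes of the PERK branch, targets or regulators and named PERK targets below, 2 rose in RNA and 1 in footprints. In TE 1 of the 10 fell, where 0.475% of all genes were called. Of 27 other ER chaperones and folding enzymes, 19 genes of glycoprotein folding and quality control, 26 of ER-associated degradation and 19 of ER translocation, none was called in RNA, footprints or TE. Median RNA changes were 0.11 for the signalling list, 0.0050 for PERK targets, 0.050 for chaperones, -0.040 for glycoprotein folding, 0.055 for degradation and 0.028 for translocation, against 0.027 over all genes. Median footprint changes were 0.11, -0.091, 0.052, -0.018, 0.062 and 0.087 in the same order, against 0.0072.

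**Figure D5:**
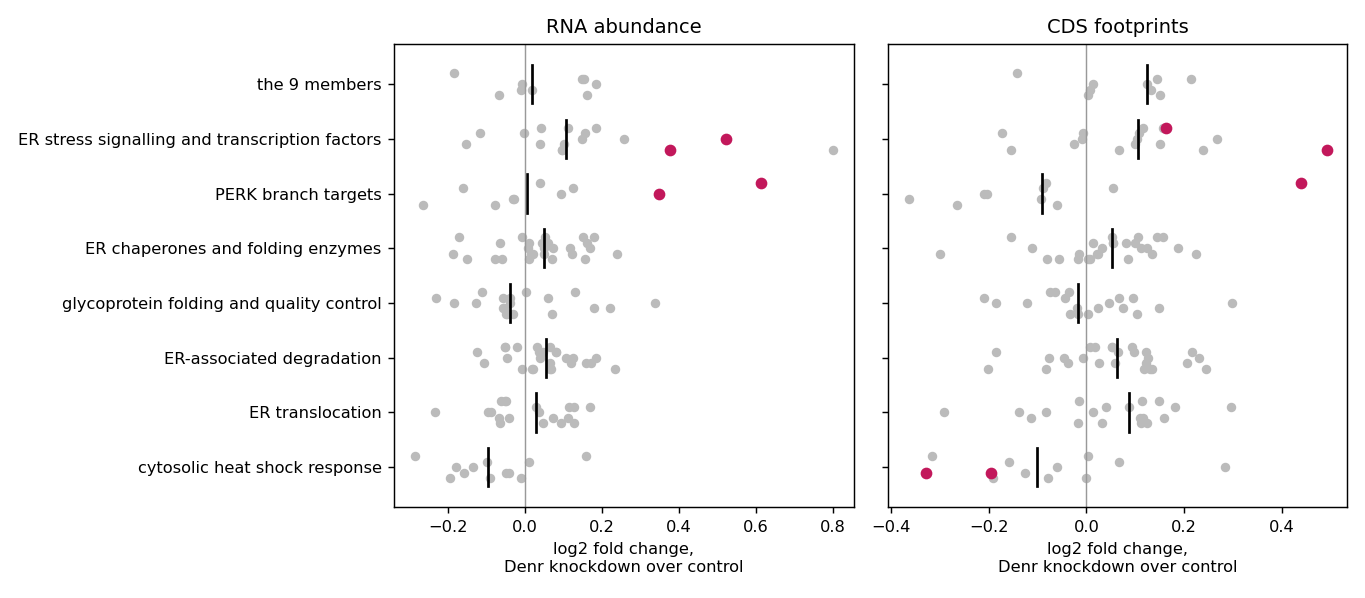
Log2 fold change of Denr knockdown over control for each gene of the pathway lists, in RNA (left) and CDS footprints (right), with called genes in dark pink, other genes in grey and a black bar at the median of each list. The called genes belong to the signalling, PERK target and cytosolic heat shock lists, and the 9 members and the ER chaperone, glycoprotein, degradation and translocation lists hold none.

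The called genes are given with their values, and most genes of both lists were not called. Atf4, the transcription factor translated when eIF2α is phosphorylated, had 1806, 1435 and 1479 RPKM of RNA with Denr shRNA1 and 1658, 1516 and 1417 with Denr shRNA2. The controls had 1243 and 1192 with Gfp shRNA and 1191, 1152 and 1176 with scramble shRNA. The arms did not overlap in RNA, and the RNA change was 0.38 ± 0.077 (SE; adjusted p = 0.0266). Atf4 was not called in footprints (0.24 ± 0.11, adjusted p = 0.215) or in TE (-0.14 ± 0.13, adjusted p = 0.994). Its footprints overlapped between the arms, with 235 RPKM in Gfp shRNA replicate 2 and 195 RPKM in Denr shRNA1 replicate 3. Trib3, a stress-induced pseudokinase, rose by 0.61 ± 0.13 in RNA (adjusted p = 0.0279) and 0.44 ± 0.098 in footprints (adjusted p = 0.0247). These calls held in each fit that left out 1 lysate. The Atf4 call was lost with Denr shRNA1 alone (0.39, adjusted p = 0.125), and those of Trib3 with Denr shRNA2 alone (0.47 in RNA, adjusted p = 0.108, and 0.28 in footprints, adjusted p = 0.145). Over the whole list of 10 PERK targets, 5 were above 0 in RNA, with changes from -0.27 to 0.61 and a median of 0.0050. In footprints 2 of the 10 were above 0, with changes from -0.36 to 0.44.

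Ddit3 (CHOP), a transcription factor of sustained ER stress, rose by 0.52 ± 0.14 in RNA (SE; adjusted p = 0.0854). Ddit3 RNA was 183, 144 and 152 RPKM with Denr shRNA1 and 124, 113 and 108 with Denr shRNA2. The controls had 112 and 108 with Gfp shRNA and 76.3, 81.6 and 97.0 with scramble shRNA. Ddit3 was not called in footprints (0.27 ± 0.14, adjusted p = 0.275). Its RNA call was lost without Denr shRNA1 replicate 2 (0.149) or 3 (0.136), Denr shRNA2 replicate 1 (0.123) or scramble shRNA replicate 1 (0.225), 2 (0.225) or 3 (0.145). It was also lost with Denr shRNA2 alone (0.29, adjusted p = 0.262) and with libraries centred on their median (0.50, adjusted p = 0.111). Atf5, a transcription factor whose mRNA carries uORFs, rose by 0.35 ± 0.074 in RNA (adjusted p = 0.0322) and fell by 0.56 ± 0.088 in TE (adjusted p = 0.0234). Its RNA call was lost without scramble shRNA replicate 1 or 2 (adjusted p = 0.109 each) and with Denr shRNA1 alone (0.118). Its TE call was lost with scramble shRNA alone as control (-0.51, adjusted p = 0.232) and with Denr shRNA1 alone (-0.53, adjusted p = 0.333). In footprints Tmbim6, a membrane protein that limits ER stress signalling, rose by 0.16 ± 0.054 (adjusted p = 0.0980), and Creb3l1, an ER-bound transcription factor of matrix secretion, by 0.49 ± 0.15 (adjusted p = 0.0698) at only 1.77 to 3.52 RPKM. The Tmbim6 call held in 1 of 11 fits that left out a lysate, Gfp shRNA replicate 1, and had an adjusted p of 0.110 to 0.196 in the others. The Creb3l1 call was lost without Denr shRNA1 replicate 2 or 3, Denr shRNA2 replicate 1 or 2 or any scramble lysate (adjusted p = 0.115 to 0.159). Against the 2 Gfp shRNA lysates alone, none of these calls held, with RNA changes of 0.34 for Atf4 and 0.36 for Trib3 (adjusted p = 0.647 and 0.901).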

How the data were processed

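RPF-seq and RNA-seq were made from 11 lysates (22 libraries). The authors trimmed reads (cutadapt), aligned them with Bowtie2 2.2.1 and TopHat2 2.0.11 to the mouse genome (mm10, GRCm38.p2) and counted them on the CDS and 5′ UTR of isoforms that Cufflinks 2.2.1 estimated as expressed, CDS first where a read fitted both. Genes with few reads and mitochondrial genes were dropped, each assay was scaled by its upper quartile, and RPKM per gene were deposited. The RPKM steps gave whole reads for 231352 of 231352 CDS and 228800 of 228800 5′ UTR values, which set depth and coverage.

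Log2(RPKM + 0.1) was tested with limma 3.58.1 in R 4.3.3 (variance trend) across 10516 genes, or 5175 for the 5′ UTR measures, with Benjamini-Hochberg adjustment and a threshold of 0.1. This scale understates the change of low genes. The script was tested on simulated data. Exact permutation tests were two-sided. Tables and plots used Python 3.11.15.

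The members and the gene lists were chosen with earlier results of these data known. Genes named were all members, at most 2 called genes per list, direction and measure (RNA, footprints, TE) with the largest change, the 6 genes most like the members in RNA, and Denr. Alternatives were other pseudocounts, filters and scalings, a fit without the variance trend, a replicate block, single control or Denr hairpins, each lysate left out, an interaction model for TE, 5′ UTR RNA subtracted, and voom on the recovered reads. The fits of CDS and 5′ UTR footprints by hairpin, Gfp shRNA alone as control and the omission of both lysates whose RNA-seq libraries stand apart (Denr shRNA1 replicate 1 and scramble shRNA replicate 3) were chosen after seeing the data.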

Additional observations from a re-analysis of the deposited data

Results flagged for a closer look

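Of 74 sets of log2 values, each a member in 1 measure in the 6 knockdown or 5 control lysates, 9 held a lysate far from the others by Dixon's criterion, and chance alone flags about 1 set in 20. All 9 were sets of knockdown lysates and 8 of them were Denr shRNA1 replicate 1, through its RNA-seq library. Its RNA was low for Hsp90b1 (7.80 against 8.51 to 8.76, gap over range 0.738) and high for Pdia4 (6.61 against 6.16 to 6.31, 0.656), Xbp1 (6.97 against 6.64 to 6.74, 0.703) and Herpud1 (6.72 against 6.10 to 6.32, 0.647). TE, which subtracts the RNA value, deviated the other way for Hsp90b1 (1.46 against 0.58 to 0.86, 0.678), Pdia4 (0.42 against 0.60 to 0.71, 0.631), Xbp1 (-0.27 against 0.081 to 0.14, 0.862) and Herpud1 (0.11 against 0.47 to 0.68, 0.628). The footprint library of the same lysate met the criterion for no member. The remaining flag was Ern1 TE in Denr shRNA2 replicate 3 (-1.19 against -0.93 to -0.81, 0.672). No member was called between the Denr hairpins in the main test of that difference, while 3 were in CDS footprints with the replicate block.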

How the results depend on the processing

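Members called in 5′ UTR footprints went from 2 to 0 with Gfp shRNA alone as control, with Denr shRNA2 alone, without both lysates whose RNA-seq libraries stand apart and with 5′ UTR RNA subtracted, and were 0 to 3 without single lysates. In relative 5′ UTR translation 1 member became 0 with a coverage filter of RPKM of at least 1, with scramble or Gfp shRNA alone, with either Denr hairpin alone and without the lysates that stand apart, and 0 to 3 without single lysates. In CDS footprints 0 became 3 with scramble shRNA alone and 1 with voom on the recovered reads, and 0 to 2 without single lysates. In RNA 0 became 1 (Xbp1) with scramble shRNA alone. TE gave 0 members under each alternative run. For single hairpins the count without single lysates was 0 to 1 in RNA with Denr shRNA1, 2 to 5 and 0 to 1 in footprints with Denr shRNA1 and Denr shRNA2, and 0 to 1 for Gfp against scramble in RNA and in footprints. In 5′ UTR footprints with Denr shRNA1 it was 0 to 3. The cause was not tested, though leaving out a hairpin also removes lysates.

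Counts over all genes moved by more than 1.5 times as follows. With Gfp shRNA alone as control, RNA calls went from 373 to 18, CDS footprint calls from 1053 to 92, TE calls from 50 to 0, 5′ UTR footprint calls from 1198 to 66 and calls in relative 5′ UTR translation from 939 to 47. With scramble shRNA alone they were 940.0 in RNA, 2651 in CDS footprints, 10 in TE and 514 in relative 5′ UTR translation. Denr shRNA1 alone gave 159 in RNA, 1 in TE, 411 in 5′ UTR footprints and 5 in relative 5′ UTR translation, and Denr shRNA2 alone gave 1 and 9 in the latter measures. Without the lysates that stand apart, 531 genes were called in CDS footprints, 691 in 5′ UTR footprints and 427 in relative 5′ UTR translation. Subtraction of 5′ UTR RNA left 4 genes, and the RPKM coverage filter 131 in relative 5′ UTR translation. Without single lysates the counts were 139 to 734 in RNA, 484 to 1946 in CDS footprints, 14 to 72 in TE, 383 to 1745 in 5′ UTR footprints and 38 to 1773 in relative 5′ UTR translation. By hairpin they were 285 to 868 (from 645) in RNA and 1001 to 2283 (from 1862) in footprints with Denr shRNA1, and 123 to 1268 (from 685) and 964 to 2475 (from 2092) with Denr shRNA2. Between the Denr hairpins they were 61 to 267 (from 217) and 560.0 to 1236 (from 1019), and for Gfp against scramble 1 to 212 (from 74) and 154 to 1300.0 (from 892). In 5′ UTR footprints they were 1 to 1775 (from 959) with Denr shRNA1, 1 to 663 (from 95) with Denr shRNA2, 0 to 2 (from 1) between the Denr hairpins and 0 to 2 (from 0) for Gfp against scramble, and the coverage filter gave 577, 25, 0 and 1 in that order.

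Correlations between deviations of same-numbered lysates were above 0.1 in 10 of 15 pairs in RNA (mean 0.33, lowest -0.082) and 13 of 15 in footprints (mean 0.18, lowest -0.0034). Pairs with different numbers had means of -0.16 in RNA and -0.089 in footprints. Of 11 lysates, 5 in RNA and 9 in CDS footprints correlated best with their own number. In 5′ UTR footprints and in relative 5′ UTR translation 10 did. The main fits still did not take the numbers as a pairing, so a shift shared by a number stays in their spread. With the replicate block, 2 members were called in CDS footprints, 4 in 5′ UTR footprints and 4 in relative 5′ UTR translation, and over all genes 1003 in RNA, 1940.0 in CDS footprints, 2289 in 5′ UTR footprints and 2418 in relative 5′ UTR translation. By hairpin the block gave 3 members in RNA with Denr shRNA1, 2 in footprints with Denr shRNA2, 3 in footprints between the Denr hairpins, and 1 in RNA and 2 in footprints for Gfp against scramble. Over all genes it gave 1868 in RNA and 3150.0 in footprints with Denr shRNA1, 1682 and 3357 with Denr shRNA2, 965 and 1812 between the Denr hairpins and 157 and 1437 for Gfp against scramble. In 5′ UTR footprints the block gave 3 members with Denr shRNA2, and over all genes 2348 with Denr shRNA1, 1451 with Denr shRNA2, 36 between the Denr hairpins and 6 for Gfp against scramble.

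Log2 fold changes of members that were not called changed sign under some alternatives. This happened with scramble shRNA alone in RNA (Hspa5 0.016, Calr 0.096, Ern1 0.0034) and TE (Calr -0.030). With Denr shRNA1 alone it happened in RNA (Hspa5 0.036, Calr 0.0068), with the replicate block in RNA (Calr 0.019, Ern1 0.0085) and with libraries centred on their median in RNA (Pdia4 -0.0040) and TE (Atf6 0.0099, Herpud1 0.011). Without the lysates that stand apart it happened in RNA (Hsp90b1 0.020, Pdia4 -0.035, Sdf2l1 -0.023), CDS footprints (Hspa5 -0.021, Calr -0.048, Ern1 -0.020) and TE (Hsp90b1 -0.13, Herpud1 0.085, Sdf2l1 0.071). With Gfp shRNA alone it happened in RNA (Pdia4 -0.069, Xbp1 -0.12, Herpud1 -0.041, Sdf2l1 -0.045), CDS footprints (Hspa5 -0.12, Calr -0.079, Xbp1 -0.058, Ern1 -0.017, Sdf2l1 -0.019) and TE (Hsp90b1 -0.033, Herpud1 0.080, Sdf2l1 0.025). With Denr shRNA2 alone it happened in RNA (Pdia4 -0.079), CDS footprints (Hspa5 -0.088, Calr -0.016, Ern1 -0.057), TE (Hsp90b1 -0.038, Atf6 0.00041, Ern1 -0.057, Herpud1 0.10, Sdf2l1 0.023) and 5′ UTR footprints (Calr -0.0054). Without single lysates, values ranged across 0 in RNA (Calr -0.064 to 0.066, Pdia4 -0.041 to 0.058, Ern1 -0.069 to 0.019), CDS footprints (Hspa5 -0.037 to 0.051, Calr -0.028 to 0.034, Ern1 -0.022 to 0.060) and TE (Hsp90b1 -0.086 to 0.14, Calr -0.041 to 0.049, Atf6 -0.034 to 0.042, Ern1 -0.041 to 0.075, Herpud1 -0.050 to 0.065, Sdf2l1 -0.15 to 0.020). The cause was not tested for any of these changes. Depth limits the 5′ UTR values: Ern1 had 18 to 39 and Herpud1 38 to 86 footprints there per library.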

Other observations

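Genes of the heat shock response were described with a list of their own, named cytosolic heat shock response. Besides cytosolic chaperones it held Hspd1, Hspe1 and Hsf1. Of its 14 genes, 12 had values. Of these 12 genes, none was called in RNA or TE and 2 fell in CDS footprints, where 10.0% of all genes were called. Hsph1, an Hsp110 exchange factor for Hsp70, had footprints of 137, 128 and 132 RPKM with Denr shRNA1 and 163, 152 and 153 with Denr shRNA2. The controls had 189.6 and 165 with Gfp shRNA and 176, 182 and 191 with scramble shRNA, so that all knockdown lysates lay below all controls. The change was -0.33 ± 0.071 (SE; adjusted p = 0.0216), and the call held in each of 11 fits that left out a lysate, but not with Gfp shRNA alone as control (adjusted p = 0.293) or Denr shRNA2 alone (0.119). Hsp90ab1, the constitutive cytosolic Hsp90, fell by 0.20 ± 0.064 (adjusted p = 0.0955), with 1282 to 1424 RPKM in knockdown lysates and 1413 to 1686 in controls. Its call held in 2 of 11 such fits, those without a Gfp lysate, and the adjusted p was 0.109 to 0.212 in the other 9. It was also lost with voom (0.105) and without the variance trend (0.103). The median footprint change of the heat shock list was -0.10, against 0.052 for the ER chaperones and 0.0072 over all genes, and the difference between the lists was not tested.

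Among 5′ UTRs with enough footprints, 6 of 16 ER chaperones and folding enzymes, 6 of 18 degradation genes, 6 of 11 translocation genes, 2 of 10 glycoprotein genes, 3 of 11 signalling genes, 1 of 6 PERK targets and 1 of 10 heat shock genes rose in 5′ UTR footprints, where 23.1% of all 5175 genes were called.

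The 6 genes whose RNA over the 11 RNA-seq libraries was most like the mean of the 9 centred member profiles, among 9203 genes with a mean of at least 5 RPKM, were B2m, Maged2, Atraid, Dhrs7, Cyb5a and Ano6, with Pearson's r from 0.966 to 0.981. The profile was 0.14 in Denr shRNA1 replicate 1, 0.098 and 0.067 in the Gfp lysates and -0.099 to -0.092 in the scramble lysates (log2, centred). The members themselves differed in profile: over their 36 pairs r had a median of 0.17, from -0.90 to 0.88, and 21 pairs were above 0. Likeness to the mean is thus not likeness to each member. The points share their libraries and the likeness is a description.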
